A study of Mus musculus with 2 samples.

Results

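The 41 S phase genes described here are the mouse symbols of a standard cell cycle list that marks cells copying their DNA. All 41 were found among the 33696 genes of both libraries by symbol, and no measured value was used to choose them. They were grouped by role into 8 genes of origin licensing and the replicative helicase, 9 of polymerases, clamp and fork, 3 of nucleotide supply, 5 of DNA repair, 11 of chromatin and histone supply, 3 of cell cycle control and 2 that serve ribosomes.

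Cells came from hindlimb digits of neonatal mice amputated through the middle phalanx (P2) at postnatal day 3. At postnatal day 7, after wound closure, each digit received an agarose bead soaked either in FGF8 at 500 ng/µl or in 0.1% bovine serum albumin (BSA), the control protein. Tissue distal to the stump was collected 24 h later, at postnatal day 8, with the surrounding epithelium removed and 4 h of Liberase digestion. Each group was 1 pool of 20 digits from 5 mice of both sexes, captured as 1 droplet library. The methods name ICR mice among the stocks used, the labels give no strain, and the FGF8 pool probably held digits that would not have regenerated, since all treated digits went into 1 pool. With 1 library a group, no difference between groups could be tested. Pool, library and treatment therefore cannot be told apart, and every interval covers counting error only.

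After filtering, 3252 BSA cells (median 15377 transcripts counted as unique molecular identifiers, UMIs) and 6715 FGF8 cells (median 12251 UMIs) remained, and 6 barcodes occurred in both libraries. Of cells that could be called by *Xist* or by Y-linked transcripts, 79.3% were female in the BSA library and 24.6% in the FGF8 library, so the main fibroblast-like values and the summed levels of most other types are also given within each sex, and other values are over both. Fibroblast-like cells made up 57.3% of BSA and 53.6% of FGF8 cells and carried all 7 fibroblast markers. The summed level of those markers was 10304 counts per 1000000 UMIs (CPM) in the FGF8 library against 19291 CPM in the BSA library, and 0 of the 7 were higher with FGF8. Neutrophil markers summed to 41.1 against 9.78 CPM in the same cells, T or NK cell markers to 11.4 against 2.92 CPM, and their part in the results was not tested.

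Before a cell divides it copies its genome once. Licensing factors load the MCM helicase onto origins in G1, cyclin E and E2F factors start S phase, and ribonucleotide reductase and thymidylate synthase supply the building blocks. The sliding clamp PCNA then tethers polymerases and many repair and chromatin factors to the fork. Many of these genes are E2F targets transcribed from late G1, while genes of mitosis are switched on later, in G2, through other promoter elements. Stromal, vascular and glial cells of a growing or healing digit divide, and so use both sets.

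Promoters are shown first because their motifs differed in frequency between S phase and mitotic genes, a feature that played no part in choosing the cells. An 8-base E2F-like motif (TTTGGCGC, TTTCGCGC, TTTCCCGC or TTTGCCGC, on either strand, overlapping matches counted separately) was found in 14 of 41 S phase gene promoters (34.1%), taken as 250 bases before and 50 after the annotated start. It was found in 16 of 64 other replication genes (25.0%), in 1 of 54 G2/M genes (1.85%) and in 607 of 21431 protein-coding genes (2.83%). The short CHR-like element (TTTGAA or TTCGAA) showed the other pattern, with 4 of 41 S phase genes (9.76%), 31 of 54 G2/M genes (57.4%) and 18.8% of all genes. CCAAT boxes lay in 56.1% of S phase, 70.4% of G2/M and 40.03% of all promoters. Among S phase genes, 4 held 2 or more E2F-like matches, and 3 of these 4 encode subunits of the MCM helicase, the other being *Dscc1*, which helps load PCNA. Stretches around the matches of those 3 are printed below 5′ to 3′ on the gene's strand of GRCm39, with the matches in capitals and positions counted from the start site as 0.
Mcm5, chr8:75835964-75836015, plus strand, positions -176 to -125: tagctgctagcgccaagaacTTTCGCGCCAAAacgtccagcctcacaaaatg
Mcm4, chr16:15455315-15455508, minus strand, positions -244 to -51: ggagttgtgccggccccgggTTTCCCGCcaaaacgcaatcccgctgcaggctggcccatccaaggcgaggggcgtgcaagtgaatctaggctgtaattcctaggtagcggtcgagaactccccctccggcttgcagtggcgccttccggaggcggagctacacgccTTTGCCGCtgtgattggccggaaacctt
Mcm6, chr1:128287462-128287572, minus strand, positions -120 to -10: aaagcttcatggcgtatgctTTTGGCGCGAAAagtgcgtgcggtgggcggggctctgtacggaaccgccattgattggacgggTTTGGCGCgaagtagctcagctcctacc
In *Mcm5* and *Mcm6* a pair of matches on opposite strands overlapped and formed 1 run. A match is a description of letters and not a site shown to be bound. *Rrm2* held no E2F-like match but was 1 of the 4 members with a CHR-like element.

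The first comparison asked how S phase transcripts differed between FGF8-treated and control fibroblast-like cells. Their summed level was 1888 CPM in the FGF8 library and 1202 CPM in the BSA library, which as a log2 ratio is 0.65 (95% counting interval 0.64 to 0.67). Of the 41 genes, 40 were higher with FGF8, whereas 44.5% of the 20116 genes with at least 10 UMIs were. A log2 ratio above 1 was reached by 5 of 41 (12.2%), against 6.82% of all genes. Among genes with at least 100 UMIs the share was 3.37%. The shift was broad and mostly small. The median over the 41 genes was 0.64, and over all genes it was -0.067. Each of the 40 higher genes had a counting interval wholly above 0, a count with no share over all genes beside it. All 41 genes were covered by at least 581 UMIs. Within female-called cells 41 of 41 were higher (43.2% of all genes), and the summed level was 1974 against 1167 CPM. Within male-called cells 39 of 41 were higher (45.0% of all genes), and it was 1895 against 1337 CPM. The direction held in both sexes, with log2 ratios of 0.76 (female-called) and 0.50 (male-called).

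Nucleotide supply differed most. *Rrm2*, the regulatory and cycle-limited subunit of ribonucleotide reductase, stood at 122.8 CPM with FGF8 and 43.7 CPM with BSA, a log2 ratio of 1.49 (1.41 to 1.57) and the highest of the 41. *Tyms*, thymidylate synthase, stood at 116 and 61.4 CPM (0.92, 0.85 to 0.99). *Rrm1*, the catalytic reductase subunit, differed less (0.84). Summed over the 3 genes, the log2 ratio was 1.10, and the 7 further genes of nucleotide supply outside the list gave 0.95.

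All 8 licensing and helicase genes were higher with FGF8, with a median log2 ratio of 0.76. *Mcm5* stood at 33.7 against 16.8 CPM (1.00, 0.87 to 1.14). *Mcm4* stood at 55.6 against 30.1 CPM (0.89), and *Mcm6* at 48.5 against 32.5 CPM (0.58). These helicase subunits act in 1 ring, yet their intervals did not all overlap. *Gmnn*, geminin, which keeps origins from being licensed again, stood at 50.3 against 25.4 CPM (0.98). *Cdc6*, which loads the helicase, had the lowest ratio of the group (0.48, 0.26 to 0.70) and stood at -0.0082 within male-called cells.

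At the fork, all 9 genes were higher, with a median of 0.50. *Clspn*, claspin, which relays stalled forks to the checkpoint, stood at 54.9 against 24.7 CPM (1.15, 1.05 to 1.26). *Pcna*, the sliding clamp, stood at 117 against 80.5 CPM (0.54, 0.48 to 0.60). *Tipin*, part of the fork protection complex, stood at 84.3 against 66.3 CPM (0.35). *Pold3*, an accessory subunit of polymerase delta, differed least of this group (27.4 against 23.2 CPM, 0.24). The interval of *Clspn* lay above those of all other genes of the group except *Fen1*, the flap nuclease of lagging strands (0.91, 0.75 to 1.08).

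The 5 repair genes were all higher, with a median of 0.64. *Usp1*, a deubiquitinase of PCNA and FANCD2, stood at 94.1 against 63.3 CPM (0.57). *Rad51ap1*, a factor of homologous recombination, stood at 22.5 against 13.0 CPM (0.79). *Exo1*, an end-resecting nuclease, stood at 8.55 against 4.07 CPM (1.07, 0.81 to 1.34). *Ung*, the uracil glycosylase, had the lowest ratio (0.45).

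Chromatin and histone supply held both clear differences and the smallest ones. *Nasp*, a histone chaperone, stood at 177 against 107 CPM (0.72), *Atad2*, a bromodomain ATPase, with a log2 ratio of 0.58, and *Slbp*, which binds the stem-loop of replication histone mRNAs, at 65.5 against 49.5 CPM (0.40). *Uhrf1*, which carries DNA methylation across replication, had the highest ratio of the group (0.94). At the other end, *Ubr7* stood at 30.03 against 26.5 CPM (0.18) and *Casp8ap2*, needed for histone mRNA processing, at 49.4 against 44.4 CPM (0.15). *Wdr76* was the only one of the 41 that was not higher, at 7.88 against 8.43 CPM (-0.097, -0.30 to 0.11).

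Among the control genes, *E2f8*, an atypical E2F that represses S phase genes, stood at 13.8 against 5.79 CPM (1.26, 1.04 to 1.48). *Dtl*, the adaptor that marks licensing factors for destruction in S phase, stood at 24.8 against 16.6 CPM (0.58), and *Ccne2*, cyclin E2 of the G1 to S transition, at 14.4 against 11.6 CPM (0.32). The 2 ribosome genes differed from each other. *Polr1b*, a subunit of RNA polymerase I, gave 0.58 (0.31 to 0.86), and *Mrpl36*, a mitochondrial ribosomal protein gene, gave 0.084 (0.013 to 0.16) with 70.7 against 66.7 CPM.

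**Figure D1:**
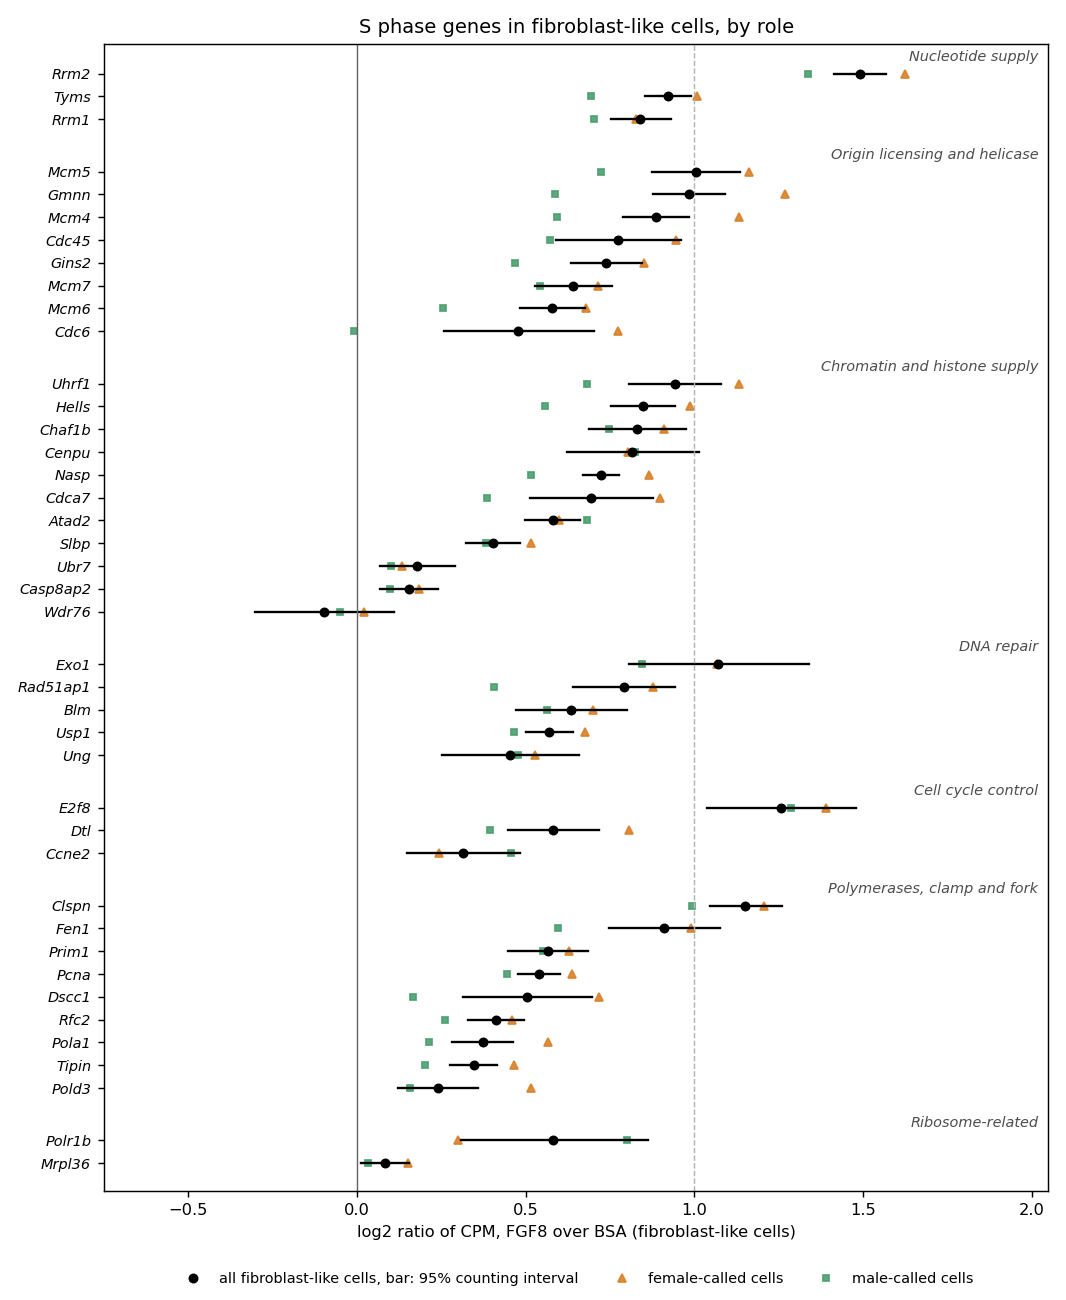
Log2 ratio of CPM (FGF8 over BSA, x axis) for each of the 41 S phase genes in fibroblast-like cells, grouped by role, with bars for 95% counting intervals, triangles for female-called and squares for male-called cells. All genes but *Wdr76* lie to the right of 0, from 0.084 for *Mrpl36* to 1.49 for *Rrm2*, and most female-called values lie to the right of the male-called ones.

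Of 64 replication genes outside the list, 62 were higher with FGF8 (44.5% of all genes), with a median of 0.57. A log2 ratio above 1 was reached by 6 of them (6.82% of all genes, 3.37% of those with at least 100 UMIs). The highest were *Ccna2*, cyclin A2 of S and G2 (72.6 against 26.9 CPM, 1.43), *Asf1b*, a histone chaperone (1.29), and *Dbf4*, the activator of the CDC7 kinase (1.27). The lowest were *Orc3*, an origin recognition subunit (24.01 against 25.8 CPM, -0.10), *Cdk2*, the S phase kinase (-0.019), and *E2f2*, an activating E2F (0.0065), whose intervals each included 0. The 54 G2/M genes differed by more: 53 were higher, 39 had a log2 ratio above 1, the median was 1.24, and the summed level was 5217 against 2381 CPM (1.13).

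Levels say nothing of how many cells carried the transcripts, so each cell was thinned to 2000 UMIs and its S phase genes were counted. This kept 3185 FGF8 and 1645 BSA fibroblast-like cells and left out 411 and 219 shallower ones. At least 5 S phase genes were detected in 19.7% of FGF8 cells (exact binomial interval 18.4 to 21.2%) and in 10.2% of BSA cells (8.79 to 11.8%). At the deposited depth, without thinning, the shares were 74.97% and 71.9%. Neutrophil-like cells, taken as mature cells that do not divide, gave 2.24% with FGF8 and 0.671% with BSA at median depths of 2407 and 3219 UMIs. Erythroid-like cells gave 0 of 480 with FGF8, which allows a share of up to 0.625% (3 of 480), and 1 of 79 with BSA. At 2000 UMIs both fibroblast-like shares were above those of these 2 cell types, which were taken to lack replication. But the erythroid-like cluster was led by globin genes, which take up UMIs of a thinned cell. *Mrpl36* stood at 8.40 CPM with FGF8 and 9.43 CPM with BSA there, against 70.7 and 66.7 CPM in fibroblast-like cells. The part of globin in the low erythroid-like share was not tested, so that share cannot show a lack of replication. With 5000 UMIs and at least 10 members, neutrophil-like shares were 13.5% of 37 FGF8 cells and 7.14% of 14 BSA cells. Fibroblast-like shares there were 21.0% and 9.22%. The summed G2/M level of neutrophil-like cells was 2627 and 2385 CPM, against 2381 CPM in BSA fibroblast-like cells, so whether they lack dividing cells was not settled. At 2000 UMIs the fibroblast-like shares were 20.7% against 10.1% within female-called and 20.5% against 11.9% within male-called cells.

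The number of genes per cell showed where the libraries parted. Cells with none of the 41 made up 17.1% with FGF8 and 26.7% with BSA, and cells with 1 or 2 made up 42.2% and 51.3%. Cells with 3 or 4 (20.9% against 11.7%) and with 5 to 9 (16.8% against 7.42%) were more frequent with FGF8. Cells with 10 or more were about equally frequent, at 2.98% (95 cells) and 2.80% (46 cells). A total of 450 FGF8 and 91 BSA cells lay at 4 or 5 genes, next to the threshold of 5.

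To see whether the transcripts were higher in each S-rich cell, levels were compared within bands of cells set by the number of other members. Among cells with at least 5 of the other 40 genes, the median log2 ratio of FGF8 over BSA over 40 genes with at least 10 UMIs was -0.26, with 8 higher and 32 lower with FGF8, and 6 intervals lay wholly below 0. Of all 10274 genes counted in cells with at least 5 members, 47.7% were higher, with a median of -0.030. The 6 members with intervals below 0 were *Gmnn* (-0.92), *Slbp* (-0.64), *Atad2* (-0.57), *Pola1* (-0.53), *Pcna* (-0.44) and *Wdr76* (-1.29). Among cells with at most 1 other member, the median over 36 genes was 0.41, with 28 higher and 7 intervals wholly above 0. Of all 12755 genes counted in cells with at most 1 member, 55.7% were higher, with a median of 0.044. The counts of intervals in both bands have no share over all genes beside them. In the band of at least 5, then, most members were not higher with FGF8, but that band has no upper limit and its cells are not alike. Of cells with at least 5 members, 534 with FGF8 and 122 with BSA held 5 to 9, and 95 and 46 held 10 or more. The part of this in the lower levels was not tested. The higher summed level went with a larger share of cells that held several members, and most members were also higher in cells with at most 1 other.

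Most members marked the same cells. In the FGF8 library a median of 71.6% of a gene's thinned UMIs fell in cells with at least 3 other members, which were 36.9 to 40.6% of cells. In the BSA library the median was 64.0%, in 18.9 to 21.9% of cells. *Dscc1* (90.2% and 82.8%), *E2f8* (88.5% and 87.5%), *Exo1* (88.2% and 84.6%) and *Rad51ap1* (84.7% and 84.0%) were among the most concentrated in both libraries. *Cdc6* was highest with FGF8 (93.0%) and stood at 77.3% with BSA, and *Clspn* stood at 79.4% and 85.5%. The BSA values of *E2f8*, *Exo1* and *Cdc6* rest on 8, 13 and 22 thinned UMIs. *Mrpl36* was spread like the cells themselves, with 39.6% and 20.2%, and *Casp8ap2* (46.3% and 27.1%), *Ubr7* (51.9% and 30.4%) and *Pold3* (56.7% and 33.3%) came close to it. *Wdr76* had 46.0% and 64.0%, from 50 and 25 thinned UMIs. As a description, other transcripts abundant in the S-rich cells of the BSA library were led by the linker histone *H1f5* (1402 CPM in cells with at least 5 members against 21.4 CPM in cells with at most 1, and 1220 against 36.1 CPM in the FGF8 library). *H1f4*, *Tuba1b*, *Dek*, *H2az1*, *Ranbp1*, *Tubb5*, *Ran*, *Snrpd1* and *Nap1l1* followed, 2.40 to 9.67 times higher in the BSA and 2.28 to 6.06 times higher in the FGF8 library.

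Cells thinned to 5000 UMIs, 2937 with FGF8 and 1496 with BSA, were deep enough to ask which S-rich cells also carried G2/M genes. Cells with at least 10 S phase genes and fewer than 10 G2/M genes were 4.05% of FGF8 cells (3.37 to 4.83%) and 3.21% of BSA cells (2.38 to 4.23%), with overlapping intervals. Cells with at least 10 of each were 17.0% (15.6 to 18.4%) and 6.02% (4.87 to 7.34%). Cells with at least 10 G2/M genes but fewer than 10 S phase genes were 18.4% (17.0 to 19.8%) and 5.55% (4.44 to 6.83%). The difference between libraries lay mainly in cells with at least 10 G2/M genes. The threshold of 10 served 54 G2/M genes (5217 and 2381 CPM) and 41 S phase genes (1888 and 1202 CPM) alike. Some G2/M genes were found in most cells of both libraries at the deposited depth, such as *Ctcf* (64.2% and 61.2%). The part of the G2/M level alone in moving S-rich cells between groups was not tested. Of S-rich cells, 80.7% (77.4 to 83.8%) with FGF8 and 65.2% (56.6 to 73.1%) with BSA had at least 10 G2/M genes as well. Below, S genes alone stands for fewer than 10 G2/M genes and not for none. In female-called cells S genes alone marked 5.11% against 2.74%, and both sets marked 19.6% against 6.31%. In male-called cells S genes alone marked 3.97% against 5.43%, and both sets marked 17.0% against 5.07%. The small group with S genes alone differed in opposite directions in the 2 sexes, while the group with both sets was larger with FGF8 in each. A threshold of 5 genes of each list also turned the first difference, to 8.14% against 10.8%, and not the second, at 41.2% against 15.7%. These groupings were chosen after the values had been seen.

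**Figure D2:**
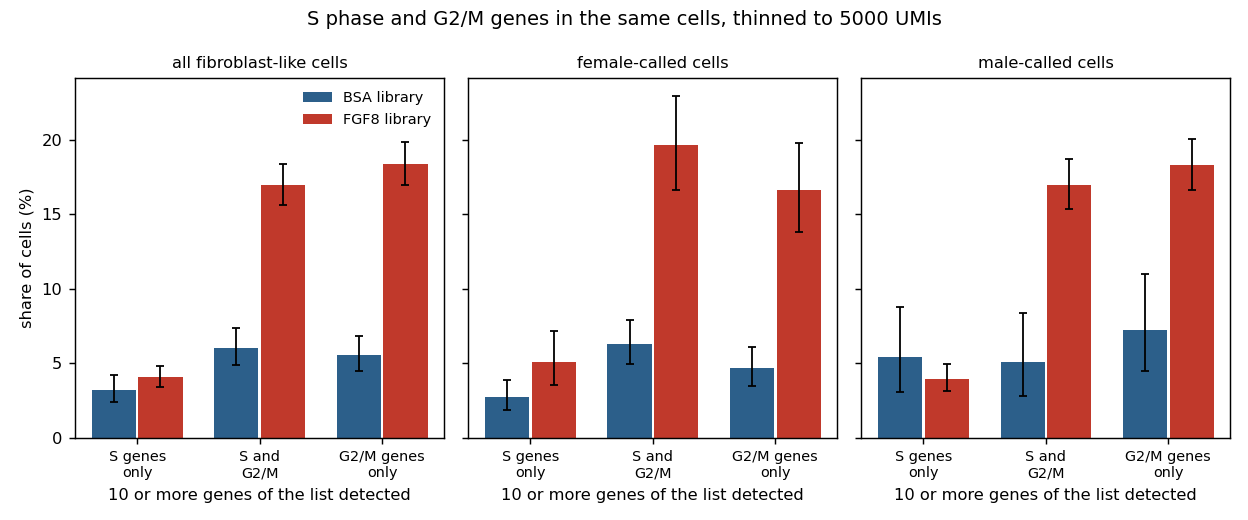
Share of fibroblast-like cells (%, y axis) with at least 10 S phase genes only, at least 10 of both lists, or at least 10 G2/M genes only, each cell thinned to 5000 UMIs, in the BSA (blue) and FGF8 (red) library and within each called sex, with exact binomial 95% intervals. The bars for S genes only (fewer than 10 G2/M genes) are of similar height (4.05% and 3.21% over all cells). Those with at least 10 G2/M genes are higher with FGF8 (17.0% against 6.02% for both lists).

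Members differed in how far they extended into the cells with several G2/M genes. The planned split took cells with at least 5 other members and compared those with at least 5 G2/M genes with those with at most 1, of which there were only 19 to 25 with FGF8 and 15 to 22 with BSA. It gave intervals above 0 in both libraries for 11 members and below 0 in both for 0. No share over all genes stands beside these counts, which are a description. *Pcna* stood at 1.68 (0.45 to 3.31) with FGF8 and 3.42 (1.55 to 6.47) with BSA, and *Mcm5* at 2.60 (0.11 to 7.91) with FGF8. In the cells with at most 1 G2/M gene these ratios rest on 5 and 2 UMIs of *Pcna* and on 1 UMI of *Mcm5*. A second split, of cells with at least 10 other members at 10 G2/M genes, was added after these values were seen, and *Pcna* and *Mcm5* differ between the splits. The second split put *Rrm2* at 265 CPM with at least 10 G2/M genes and 108 CPM with fewer in the FGF8 library. The interval of this log2 ratio was 0.92 to 1.70. In the BSA library *Rrm2* stood at 308 and 104 CPM (1.56, 0.93 to 2.26). Cells with fewer than 10 G2/M genes can still hold several. *Tyms* (0.60 and 1.66) and *Rad51ap1* (0.75 and 1.11) also had intervals above 0 in both libraries. At the other end, some members were lower in cells with at least 10 G2/M genes. They were *Cdc6* (-0.76, -1.45 to -0.029) and *Mcm6* (-0.51, -0.89 to -0.11) in the FGF8 library. In the BSA library they were *Ung* (-1.65, -2.95 to -0.42) and *Mcm5* (-0.95, -1.73 to -0.17). No gene had an interval below 0 in both. Over the 41 genes the median was 0.15 with FGF8, with 22 above 0, and 0.38 with BSA, with 30 above 0. These counts, too, have no share over all genes beside them. *Pcna* stood at -0.017 and 0.13. The order of the 41 genes was alike in the 2 libraries (Spearman's rho 0.76 over 41 genes, a description, since genes of a library share its cells and depth).

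**Figure D3:**
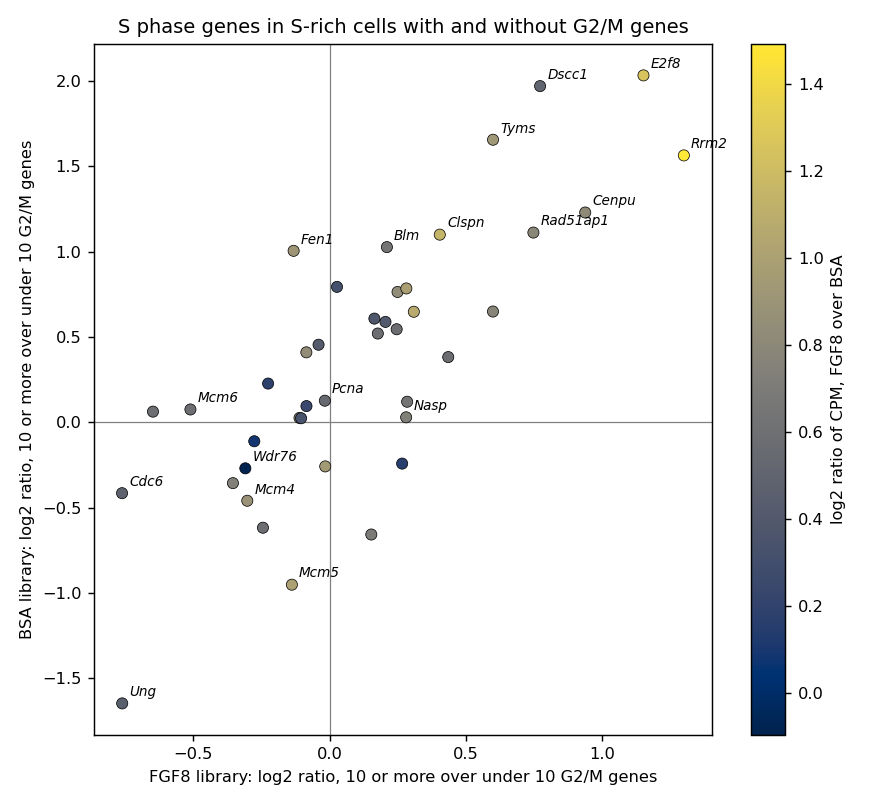
Each point is 1 of the 41 S phase genes, placed by its log2 ratio of level in S-rich cells with at least 10 over those with fewer than 10 G2/M genes in the FGF8 (x axis) and BSA (y axis) library and coloured by its log2 ratio of CPM between libraries in all fibroblast-like cells. *Rrm2*, *E2f8* and *Tyms* sit at upper right, and *Cdc6*, *Ung*, *Mcm4* and *Mcm5* at lower left.

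Fibroblast-like cells were not uniform in S phase transcripts. Clustering at a finer resolution, again without the listed cell cycle and replication genes, gave 3 groups of at least 50 cells among them. Genes such as *H1f5*, which went with the members, were not on those lists, and their part in the groups was not tested. The first, led by *Dpep1* and with the fibroblast markers, had 1045 CPM with FGF8 and 891 CPM with BSA (0.23), and 5.90% and 5.46% of its thinned cells had at least 5 members. The second, led by *Prg4*, the lubricin gene, and *Scx*, a tendon regulator, had 2308 and 1557 CPM (0.57) and 33.0% against 18.2% of cells. With 1524 FGF8 and 595 BSA cells, it accounted for 60.0% and 37.8% of each library's S phase UMIs. Its median depth was 29182 UMIs with FGF8 and 26732 UMIs with BSA, against 14496 and 18717 UMIs in the first group. Deeper cells add more to such a share. The third, of low depth (median 1543 and 1479 UMIs), had 1452 and 965 CPM (0.59) and 15.4% against 7.52% of cells. The marker lists left both the second and the third group unnamed at this resolution. Within the first group cells with both S and G2/M genes were 2.77% against 1.96%, with overlapping intervals, and within the second 29.6% against 12.02%. Between the first and second groups, the larger difference lay in the *Prg4* and *Scx* group, which made up 22.7% of kept cells with FGF8 and 18.3% with BSA.

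Over all kept cells the summed level was 1721 against 1252 CPM (0.46, 0.45 to 0.47). Of the 41 genes, 39 were higher with FGF8 (39.8% of all genes). A log2 ratio above 1 was reached by 1 (2.44%), against 4.6% of all genes and 1.73% of those with at least 100 UMIs. At least 5 members were found in 16.1% and 11.3% of thinned cells, and in 60.4% and 64.1% of cells at the deposited depth, where the direction turned.

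By cell type, the libraries did not share 1 pattern. Macrophage-like cells, a cluster that also held mast and lymphoid cells, had 1690 CPM with FGF8 and 1315 CPM with BSA (0.36, 0.32 to 0.40), and 39 of 41 genes were higher (54.3% of all genes). Within each sex the ratio was smaller, at 0.23 and 0.17. Keratinocyte-like cells had 1585 and 1022 CPM (0.63, 0.56 to 0.71), with 39 of 41 higher (61.9% of all genes). Their median depth was 13743 UMIs with FGF8 and 6377 UMIs with BSA, and thinning lowered the ratio to 0.29. Within female-called cells it was 0.77 and within male-called cells 0.62. *Uhrf1* (37.8 against 11.7 CPM) and *Clspn* (32.1 against 11.7 CPM) differed most there among genes with at least 100 UMIs.

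In smooth muscle or pericyte-like cells the summed level was 1930 and 1861 CPM (0.052, 0.0011 to 0.10), with 24 of 41 higher (52.3% of all genes). In Schwann-like cells, the glia of peripheral nerve, it was 1858 and 1971 CPM (-0.085, -0.14 to -0.028), with 17 of 41 higher (50.4% of all genes). In endothelial-like cells it was 1863 and 2005 CPM (-0.11, -0.17 to -0.041), with 13 of 41 higher (51.2% of all genes). These 3 types did not show the FGF8 excess of the fibroblast-like cells, and their direction was not the same in both sexes, for which the reason was not tested. The log2 ratio was 0.18 in female-called and -0.23 in male-called smooth muscle or pericyte-like cells, 0.61 and -0.76 in Schwann-like cells with 18 male-called BSA cells, and -0.34 and 0.31 in endothelial-like cells with 16. Chondrocyte-like cells were low in both libraries (608 and 715 CPM), and erythroid-like cells lowest (145 and 153 CPM). Neutrophil-like cells stood at 814 and 809 CPM (0.0077, -0.14 to 0.15), but this value depended on how they were taken. It was -0.44 among female-called and 0.66 among male-called cells, 0.66 in clusters drawn on all variable features, 0.82 with types called per cell and 0.68 after thinning.

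Gene by gene, control cells had their highest levels outside the fibroblast-like cells. In the BSA library 18 members were highest in Schwann-like and 15 in endothelial-like cells, 6 in smooth muscle or pericyte-like cells and 0 in fibroblast-like cells. In the FGF8 library 12, 8 and 6 were highest there, and 7 were highest in fibroblast-like cells, namely *Rrm2*, *Rrm1*, *Gins2*, *Dtl*, *Nasp*, *Usp1* and *Clspn*. For *Rrm2* the order changed from endothelial-like (76.4 CPM), Schwann-like (70.3 CPM), smooth muscle or pericyte-like (50.03 CPM) and fibroblast-like cells (43.7 CPM) with BSA to fibroblast-like (122.8 CPM), Schwann-like (92.0 CPM) and keratinocyte-like cells (67.7 CPM) with FGF8. For *Tyms* endothelial-like cells were highest in both (149 and 159 CPM), and its fibroblast-like level went from 61.4 to 116 CPM, next to smooth muscle or pericyte-like cells at 112 and 116 CPM. *Pcna* was as high in neutrophil-like cells (134 CPM with BSA and 139 CPM with FGF8) as in endothelial-like cells (149 CPM in both), and *Slbp* (70.1 and 65.7 CPM) was also found in neutrophil-like cells, which held few cells with several members. *Gmnn* was highest in macrophage-like cells with FGF8 (85.5 CPM) and in endothelial-like cells with BSA (74.1 CPM). Erythroid-like cells, led by globin genes, were lowest for 40 of 41 genes in each library, *Mrpl36* among them.

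**Figure D4:**
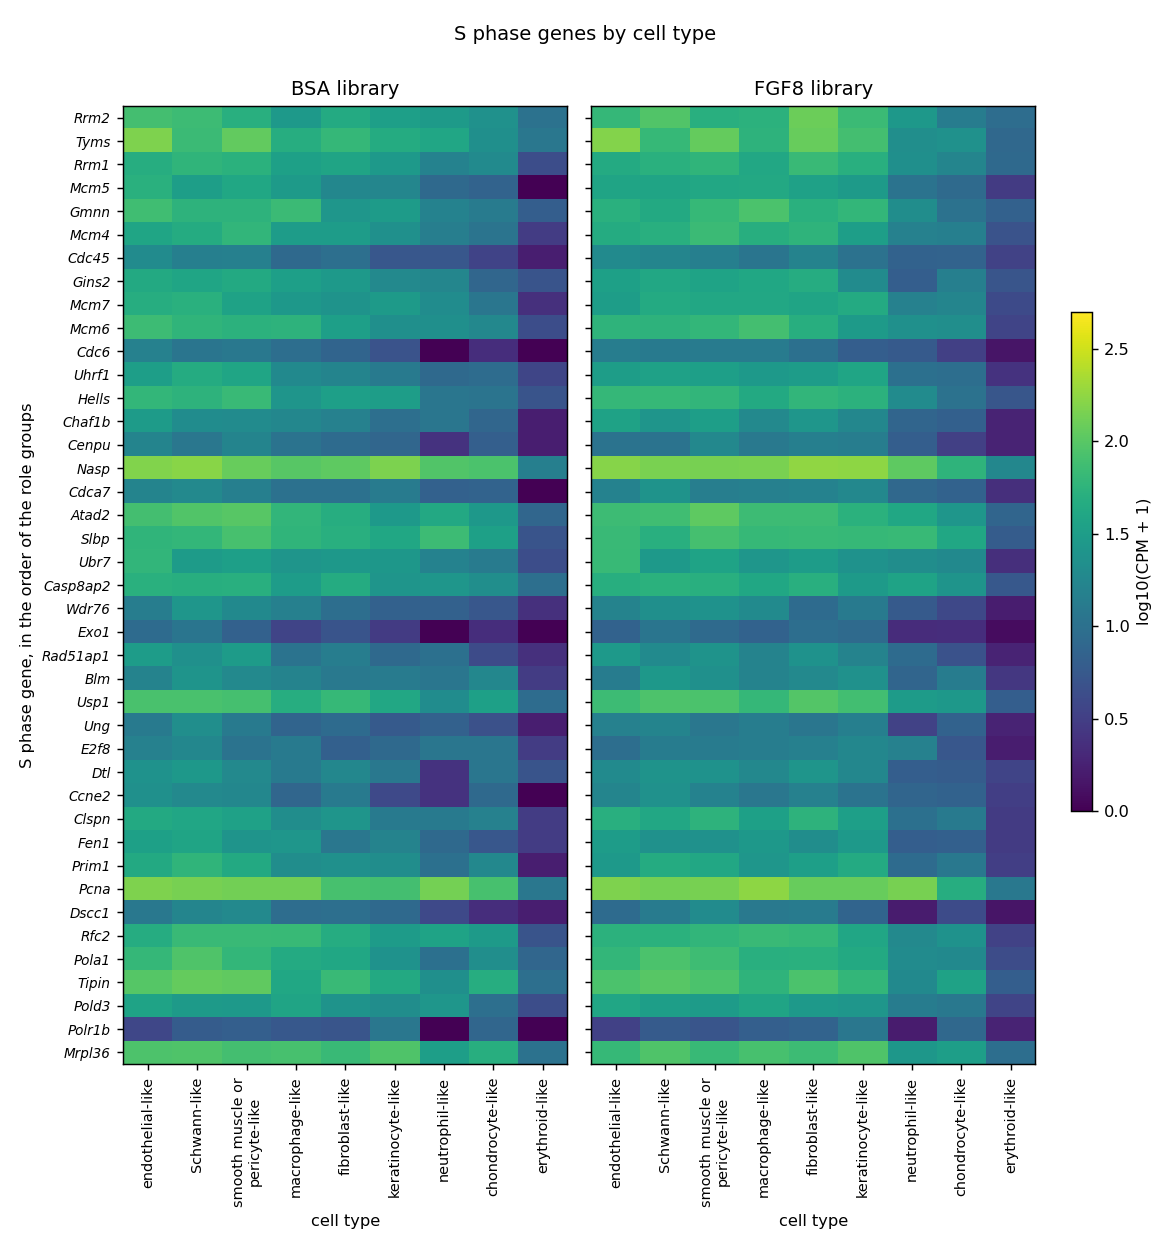
Level of each S phase gene (rows, in the order of the role groups) in each cell type (columns), as log10(CPM + 1), in the BSA and FGF8 library. Erythroid-like columns are dark throughout, endothelial-like and Schwann-like columns are alike in both panels, and the fibroblast-like column is brighter with FGF8, as for *Rrm2* (43.7 and 122.8 CPM).

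The share of thinned cells with at least 5 members also differed between types. With BSA it was 27.2% in endothelial-like, 25.2% in Schwann-like, 20.6% in smooth muscle or pericyte-like, 15.5% in keratinocyte-like, 10.2% in fibroblast-like and 8.85% in macrophage-like cells. With FGF8 the shares, in the same order of types, were 21.8%, 20.4%, 24.3%, 23.0%, 19.7% and 13.6%. The first 4 types had overlapping intervals between libraries, and those of fibroblast-like cells did not overlap. Macrophage-like cells had intervals of 11.4 to 16.0% with FGF8 and 6.40 to 11.9% with BSA, which overlapped. With FGF8 the fibroblast-like share came within the intervals of the vascular and glial shares.

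**Figure D5:**
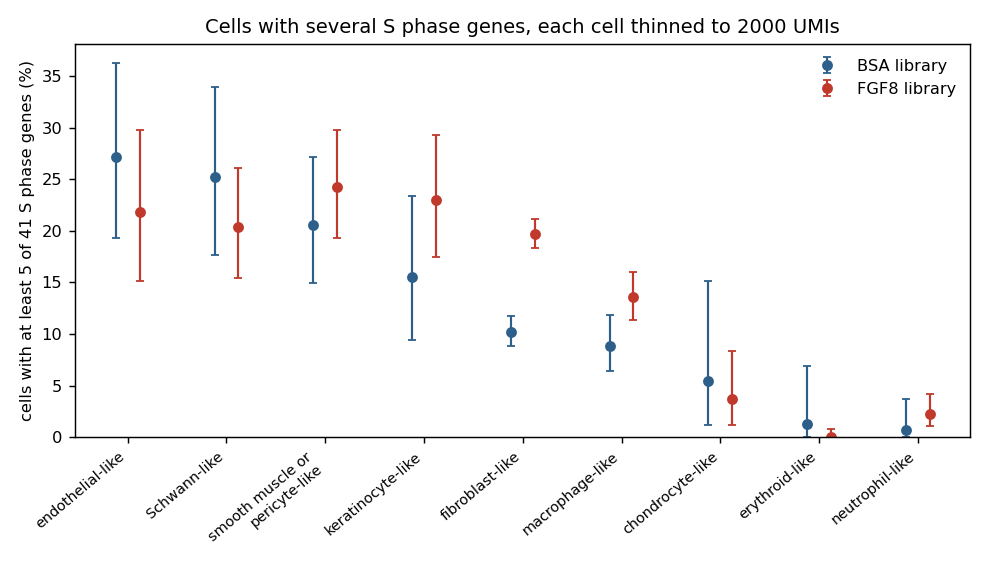
Share of cells (%, y axis) with at least 5 of the 41 S phase genes after thinning to 2000 UMIs, by cell type, in the BSA (blue) and FGF8 (red) library, with exact binomial 95% intervals. Fibroblast-like cells go from 10.2% to 19.7% with intervals apart, and endothelial-like and Schwann-like cells overlap.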

How the data were processed

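Single-cell RNA sequencing was performed on 1 pooled library per treatment. The authors made the deposited matrices, which hold raw UMI counts per gene and barcode, with Cell Ranger 9.0.0 and the GRCm39 transcriptome. Here barcodes with more than 200 and fewer than 7500 genes and under 15% mitochondrial UMIs were kept, following the study's filter. Libraries held 67739460 (BSA) and 124889213 UMIs (FGF8).

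Cells were integrated with Seurat 5.3.0 (SCTransform, CCA, 30 components, resolution 0.05, seed 42). Listed cell cycle and replication genes were left out of the 3000 variable features (2954 remained), since clusters drawn on the members would be circular. Clusters were named from marker lists. Scrublet (scanpy 1.11.5) called 0 doublets in either library, so it did not work as a caller, and doublets were not removed in the main values. Cells with *Xist* and no Y-linked UMI were called female, and the converse male.

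Within each library, UMIs of a cell type were added up and given as CPM. Ratios have exact conditional 95% intervals, and shares have Clopper-Pearson intervals (scipy 1.17.1), both for counting error only. A count of 0 was set to a floor of 3 counts. For shares, cells were thinned to 2000 or 5000 UMIs without replacement. Interval and thinning code was tested on simulated data. Background shares cover genes whose UMIs in both libraries came to 10 or more. Promoters were read from GRCm39 with GENCODE starts, and all 41 members had one. Protein sequences were not used here.

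Genes named are the members with the most UMIs in each role group, the 5 highest and 5 lowest ratios, the 3 highest and 3 lowest of the other replication genes, and the 10 non-members highest in S-rich BSA cells. Others named were chosen after their values were seen. The members, lists and rules were chosen with earlier results of these data known. Alternatives covered cell filter, clustering features and resolution, cell type per cell, thinning, weighting, centring, sex, doublet scores and the UMI minimum.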

Additional observations from a re-analysis of the deposited data

Results flagged for a closer look

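In 3 cell types the summed S phase level had a log2 ratio of FGF8 over BSA below 0, with a counting interval below 0, while fibroblast-like cells stood at 0.65. The values were -0.085 in Schwann-like, -0.11 in endothelial-like and -0.23 in chondrocyte-like cells. The difference between cell types was not tested, since each group is 1 library. The sign was not the same in both sexes in any of the 3: 0.61 in female-called and -0.76 in male-called Schwann-like cells, -0.34 and 0.31 in endothelial-like cells, and -0.49 and 0.31 in chondrocyte-like cells.

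Barcodes with 7500 or more genes, left out by the study's filter, carried S phase genes more often than kept cells. After thinning to 2000 UMIs, at least 5 of the 41 were detected in 41.2% of 274 such FGF8 barcodes (kept cells 16.1%) and in 31.1% of 161 such BSA barcodes (kept cells 11.3%). Their summed levels were 2298 and 2023 CPM. What sets these barcodes apart was not tested.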

How the results depend on the processing

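No paired analysis was possible because each group is 1 library, and no replicate could be left out. In fibroblast-like cells, the median stayed above 0 in all 12 alternatives, as did 36 to 41 members, and the summed ratio in all 11 run for it. The median of 0.64 moved to 0.81 under the stricter cell filter, 0.22 in fibroblast-like clusters at a resolution of 0.2, which keep only the *Dpep1* group, 0.48 with cells thinned to 2000 UMIs, 0.77 and 0.52 by sex (female-called, then male-called). The 5 members above 1 became 11, 0, 9 and 2 under the first, second and last 2 of these and 3 with equal weight of cells. The summed ratio of 0.65 moved to 0.23 at a resolution of 0.2, 0.53 and 0.59 with thinning to 2000 and 5000 UMIs, 0.51 with equal weight, 0.72 after centring, 0.76 and 0.50 by sex (female-called, then male-called). Over all kept cells, 0.46 moved to 0.40 under the stricter filter, 0.39 with no upper gene limit, 0.56 and 0.33 by sex, 0.25 with equal weight and 0.27 with thinning.

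The share of fibroblast-like cells with at least 5 members differed by 9.54 percentage points, and by 3.03 unthinned, 22.9 and 11.8 at 5000 UMIs with at least 5 and 10 members, and 18.7 with at least 3. Over all kept cells 4.77 points turned to -3.62 unthinned (median depths 15377 UMIs with BSA and 12251 UMIs with FGF8) and moved to 12.4, 6.81 and 9.24 under the other 3 and to 7.56 in female-called cells.

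By cell type, sign changes were 0.90 (erythroid-like), 0.058 (endothelial-like) and 0.51 (chondrocyte-like) with types called per cell, -0.44 (neutrophil-like) and 0.61 (Schwann-like) among female-called, and -0.23 (smooth muscle or pericyte-like), 0.31 (endothelial-like) and 0.31 (chondrocyte-like) among male-called cells. With all variable features no keratinocyte-like cluster formed. Male-called erythroid-like cells, with 3 in the BSA library, were not used as an alternative (-0.22, -0.81 to 0.43).

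Alternatives added after the data were seen concern cells with S genes alone and with both lists. The first difference of 0.84 points became -2.62 with 5 genes at 5000 UMIs, 2.37 among female-called and -1.46 among male-called cells. The second, 11.0 points, became 25.5 with 5 genes at 5000 UMIs, 8.65 with 5 genes at 2000 UMIs, 13.3 in female-called cells, 0.82 in the *Dpep1* and 17.5 in the *Prg4* and *Scx* group. The causes were not tested. Depth limits genes such as *Polr1b*, *Wdr76* and *Exo1*, the least counted of the 41 in fibroblast-like cells.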
